A study of Mus musculus with 7 samples.

Results

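The SoxD genes Sox5, Sox6 and Sox13 form a subgroup of the Sox family of transcription factors. They were followed here in oligodendroglia of mouse brain that overexpressed the related factor Sox9 (genotype Sox9-tg, 4 libraries) and in oligodendroglia wild type for Sox9 (genotype Sox9-wt, called control, 3 libraries). The members were the rows of the count tables whose gene name is Sox5, Sox6 or Sox13, which gave 3 of 49315 genes. All 3 passed the filter on low counts, among 16616 genes tested. Bulk mRNA profiles were made from total RNA, and the title of the series speaks of NG2 glia soon after birth. The labels call the libraries biological replicates but do not say whether they came from separate animals or cultures, so p-values measure only the spread between these libraries, which may be technical. The labels also give no promoter for the transgene, no age in days, no sex and no sorting step.

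SoxD proteins bind DNA through an HMG box and pair with one another through a coiled-coil region, and they have no activation or repression domain of their own. In mouse cartilage Sox5 and Sox6 act beside Sox9 to switch on matrix genes such as Col2a1 and Acan. In the oligodendrocyte lineage of the mouse they are known for the opposite kind of role, holding progenitors back from early specification and from terminal differentiation, in part by counteracting the SoxE proteins Sox9 and Sox10. Sox13 is the less studied member and is also present in oligodendroglia. NG2 glia, the proliferating precursors of oligodendrocytes, express Sox5 and Sox6.

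The members lie on different chromosomes, all on the minus strand, and their promoters are shown because all 3 genes moved in the same direction in the comparison that follows. Sox5 (ENSMUSG00000041540, GRCm38 chromosome 6, 143828425 to 144781977) spans 954 kb, Sox6 (ENSMUSG00000051910, chromosome 7, 115470872 to 116038796) spans 568 kb, and Sox13 (ENSMUSG00000070643, chromosome 1, 133382303 to 133424377) spans 42.1 kb. RefSeq promoters of 300 bases on GRCm38.p6 (250 before and 50 after a start) were found for all 3 genes, with 1 start for Sox5, 6 for Sox6 and 1 for Sox13. Capitals mark the core letters of Sox binding sites, searched as ACAAT and ACAAAG on both strands. These forms share their opening letters but cannot match at the same place, although matches on opposite strands may overlap, and a match is not a bound site. The Sox5 entry at chr6:143947057-143947356 is an internal start, 835 kb downstream of the 5′ end of the annotated gene, and Sox6 is shown at its outermost start (chr7:116038695-116038994) and at an inner start rich in matches (chr7:115995037-115995336). The Sox13 entry is chr1:133424163-133424462.
Sox5: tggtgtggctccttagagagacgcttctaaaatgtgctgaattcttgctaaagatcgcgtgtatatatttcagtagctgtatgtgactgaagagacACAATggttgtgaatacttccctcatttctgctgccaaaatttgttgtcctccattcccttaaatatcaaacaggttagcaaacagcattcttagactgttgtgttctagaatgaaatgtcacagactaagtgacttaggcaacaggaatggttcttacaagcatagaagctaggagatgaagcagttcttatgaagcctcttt
Sox6 outermost start: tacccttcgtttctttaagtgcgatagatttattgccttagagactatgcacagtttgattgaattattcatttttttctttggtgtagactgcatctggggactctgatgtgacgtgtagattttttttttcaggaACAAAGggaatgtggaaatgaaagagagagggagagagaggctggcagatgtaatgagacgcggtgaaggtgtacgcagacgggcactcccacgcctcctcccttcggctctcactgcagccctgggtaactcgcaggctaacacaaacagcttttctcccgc
Sox6 inner start: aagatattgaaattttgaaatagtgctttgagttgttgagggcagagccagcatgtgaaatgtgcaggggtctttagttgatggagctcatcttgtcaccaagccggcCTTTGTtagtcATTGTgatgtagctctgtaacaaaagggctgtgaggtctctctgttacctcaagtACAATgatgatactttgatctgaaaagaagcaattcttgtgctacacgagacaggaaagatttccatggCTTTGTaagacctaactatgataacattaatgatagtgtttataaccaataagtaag
Sox13: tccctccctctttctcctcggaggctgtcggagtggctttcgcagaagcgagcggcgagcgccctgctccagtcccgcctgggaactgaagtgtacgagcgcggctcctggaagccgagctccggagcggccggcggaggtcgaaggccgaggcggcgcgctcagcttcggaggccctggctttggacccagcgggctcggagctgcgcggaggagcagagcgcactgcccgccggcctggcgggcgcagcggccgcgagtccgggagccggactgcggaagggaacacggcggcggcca

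The Sox13 window was GC-rich (73.3% GC) and held no match. The Sox5 window (39.7% GC) held 1 match, as did the outermost Sox6 window (47.0% GC). The inner Sox6 window shown (39.0% GC) held 4. Of 32851 RefSeq promoters of this length, 42.9% held at least 1 match and 1.03% held 4 or more, with a median GC content of 52.7%. Over the other Sox6 starts the number was 1, 1, 4 and 3. Windows with 1 match are thus common, no match says only that these letters are absent from the window, and counts per gene do not show which start was used.

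All 3 SoxD genes rose in Sox9-tg libraries. Sox6 rose most, 3.56-fold, while Sox13 rose 1.86-fold and Sox5 1.78-fold. Their levels did not overlap between the groups, which was the case in the higher direction for 13.1% of all tested genes. Among all tested genes, 7.69% were called higher at an adjusted p under 0.05 (quasi-likelihood test of edgeR, Benjamini-Hochberg over 16616 genes), and 5.86% lower, 13.5% in all. The share called higher was 10.3% with DESeq2 and 7.47% with limma-voom, and both tools also called all 3 SoxD genes higher. Levels are CPM, read counts scaled to library size, after TMM scaling, which corrects for differences in library composition, and values after ± are SD over 4 Sox9-tg or 3 control libraries. A positive log2 fold change means a higher level in Sox9-tg libraries. In bulk RNA, more cells that express a gene and more RNA of it per cell cannot be told apart.

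Sox6 stood at 485, 501, 351 and 357 CPM in Sox9-tg libraries 1 to 4, against 127, 111 and 119 CPM in control libraries 1 to 3. The Sox9-tg libraries split into a higher pair (1 and 2) and a lower pair (3 and 4), while the control libraries lay close together. The lowest Sox9-tg library was still 2.75 times the highest control library. The means were 423 ± 80.5 CPM in Sox9-tg and 119 ± 8.41 CPM in control libraries (log2 fold change 1.83, SE 0.17, adjusted p = 0.000457 by edgeR). Of all tested genes, 2.31% had a larger log2 fold change. Leaving out any single library moved the log2 fold change only between 1.75 and 1.92, and the call held each time (highest adjusted p = 0.00492, edgeR).

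Sox13 stood at 70.4, 48.8, 68.1 and 64.1 CPM in Sox9-tg libraries 1 to 4, against 31.4, 37.1 and 32.7 CPM in control libraries 1 to 3. Sox9-tg library 2 was the lowest of its group and lay 1.32 times above control library 2, the highest of the control group, so the groups did not overlap. The means were 62.8 ± 9.69 CPM in Sox9-tg and 33.8 ± 2.96 CPM in control libraries (log2 fold change 0.90, SE 0.15, adjusted p = 0.00536 by edgeR). Without single libraries the log2 fold change ran between 0.83 and 1.01, and the call held each time (highest adjusted p = 0.0412, edgeR).

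Sox5 stood at 214, 141, 137 and 141 CPM in Sox9-tg libraries 1 to 4, against 95.4, 80.7 and 90.3 CPM in control libraries 1 to 3. Sox9-tg library 1 was far above the other Sox9-tg libraries, which agreed closely and still lay above every control library. The means were 158 ± 37.4 CPM in Sox9-tg and 88.8 ± 7.49 CPM in control libraries (log2 fold change 0.83, SE 0.18, adjusted p = 0.0164 by edgeR). Without Sox9-tg library 1 the log2 fold change was 0.65 with an SE of 0.098, and it passed the test (adjusted p = 0.00474, edgeR). Without control library 3 it was 0.85 and no longer passed (adjusted p = 0.0707, edgeR), and it was the only one of the 3 calls to be lost this way.

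**Figure D1:**
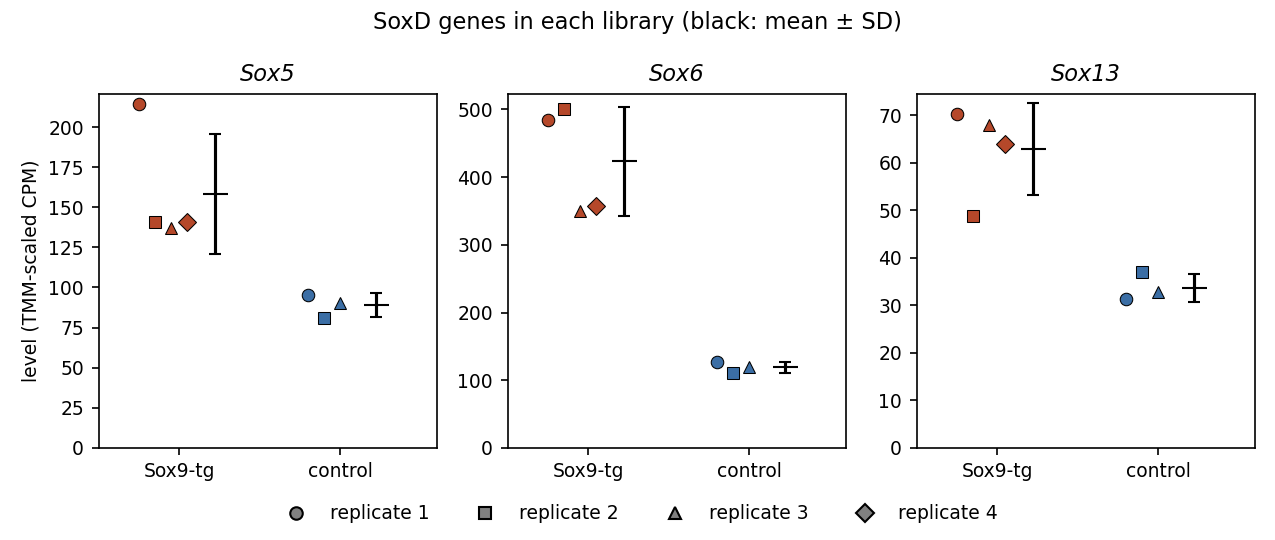
Levels of Sox5, Sox6 and Sox13 in TMM-scaled CPM (vertical axis, from 0) in each Sox9-tg and control library, with marker shape for the replicate number and the black bar for mean ± SD. Every Sox9-tg point lies above every control point, Sox6 shows the widest gap, and Sox9-tg library 1 stands apart in Sox5 at 214 CPM.

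The counts behind these values were high: the smallest was 541 reads for Sox13 in control library 1, and the largest 10040 reads for Sox6 in Sox9-tg library 2. Libraries held 15768472 to 20815459 gene counts in the Sox9-tg group and 17275678 to 30507326 in the control group. The targeted gene matched the labels in every library, since Sox9 ran between 2207 and 3597 CPM in Sox9-tg and between 239 and 353 CPM in control libraries. Defining genes of the labelled cells were present throughout, Olig2 at 526 to 790 CPM in Sox9-tg and 310 to 385 CPM in control libraries, and Pdgfra at 1303 to 1538 CPM in Sox9-tg and 409 to 453 CPM in control libraries. The libraries with the highest SoxD levels were not those with the highest Sox9. Sox9-tg library 1 had the lowest Sox9 level of its group (2207 CPM) with the highest Sox5 and Sox13, and Sox9-tg library 3 had the highest Sox9 (3597 CPM) with the lowest Sox5 and Sox6.

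Sox6 was higher relative to both other members in every Sox9-tg library. Within a library, the ratio of Sox6 to Sox5 counts does not depend on scaling, and it was 2.26, 3.56, 2.55 and 2.54 in Sox9-tg libraries 1 to 4, against 1.33, 1.37 and 1.32 in control libraries 1 to 3. The groups did not overlap, and the mean log2 ratio differed by 1.00 (exact two-sided permutation test, p = 0.0571, adjusted p = 0.0857 over the 3 ratios among members). With 4 against 3 libraries there are 35 splits, so 0.0571 is the smallest p this test can give and it cannot pass 0.05. The ratio of Sox6 to Sox13 counts was 6.89, 10.3, 5.15 and 5.58 in Sox9-tg libraries and 4.05, 2.98 and 3.64 in control libraries, again without overlap (log2 difference 0.93, exact permutation p = 0.0571, adjusted p = 0.0857). Sox13 and Sox5 kept a similar ratio, with a mean log2 ratio of -1.32 ± 0.29 in Sox9-tg and -1.39 ± 0.25 in control libraries (difference 0.08, exact permutation p = 0.857). That difference was smaller than the spread within either group, and its sign turned without Sox9-tg library 3 or control library 1 (-0.027 each).

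Levels of different genes can be compared only per length. On the RPKM scale (CPM per kilobase of the union of annotated exons), the order in Sox9-tg libraries was Sox6 at 28.6 ± 5.43, Sox13 at 14.6 ± 2.25 and Sox5 at 11.0 ± 2.60 RPKM. In control libraries it was Sox6 at 8.03 ± 0.57, Sox13 at 7.83 ± 0.69 and Sox5 at 6.18 ± 0.52 RPKM. Sox6 stood above both others in every Sox9-tg library, whereas Sox6 and Sox13 did not differ beyond their spread in control libraries. The ranges of Sox13 and Sox5 overlapped over the Sox9-tg libraries, although on this scale Sox13 was above Sox5 within every library of both groups. The place of Sox13 rests on the length used: per kilobase of the longest annotated transcript it came last in both groups, at 17.01 ± 2.62 beside 21.8 ± 5.16 for Sox5 in Sox9-tg libraries, and at 9.14 ± 0.80 beside 12.3 ± 1.03 for Sox5 in control libraries. Sox6 had the highest mean in both groups under either length.

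As a share of the summed SoxD level per length, Sox6 made up 51.2%, 61.5%, 48.3% and 49.4% in Sox9-tg libraries 1 to 4, against 38.1%, 34.4% and 36.7% in control libraries 1 to 3. The groups did not overlap in this share. Sox5 held 20.2 ± 2.299% in Sox9-tg and 28.0 ± 1.87% in control libraries, also without overlap, and Sox13 held 27.2 ± 5.23% in Sox9-tg and 35.6 ± 3.74% in control libraries. The highest Sox13 share in a Sox9-tg library (32.2%) nearly reached the lowest in a control library (32.4%). The summed level was 54.1 ± 7.12 RPKM in Sox9-tg and 22.0 ± 0.44 RPKM in control libraries. Shares of one sum are tied to one another, so the lower shares of Sox5 and Sox13 go with higher levels of both genes.

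**Figure D2:**
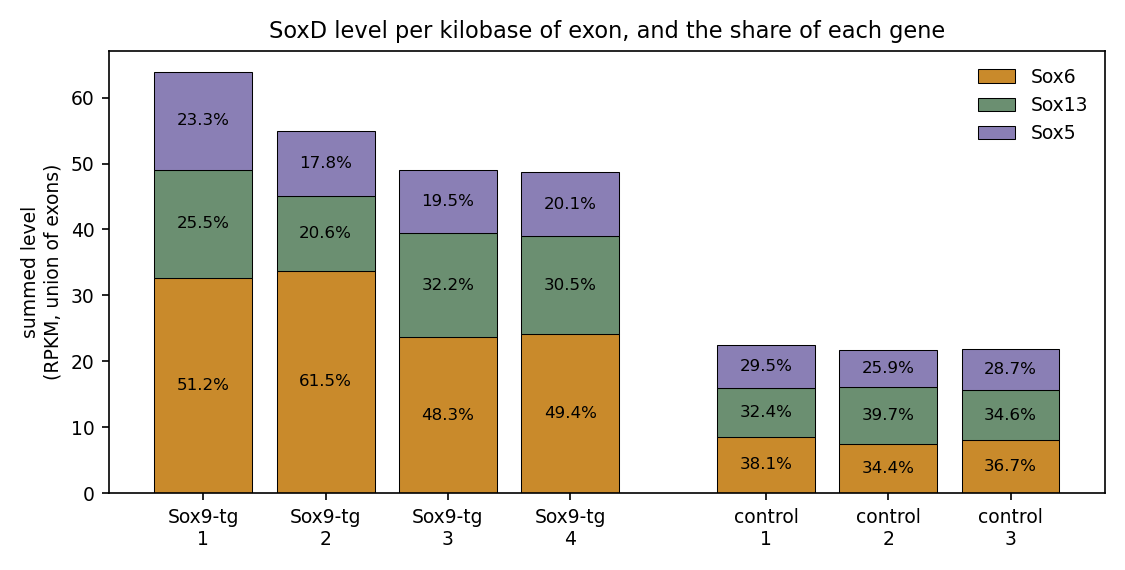
Summed SoxD level in RPKM (bar height, from 0) in each library, divided into Sox6, Sox13 and Sox5, with the share of each gene printed in its segment. The Sox9-tg bars reach 48.7 to 63.9 RPKM and the control bars 21.7 to 22.5 RPKM, and the Sox6 segment is widest in all Sox9-tg bars.

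Among the SoxE genes, the fold changes of Sox9 and Sox10 were larger than those of the SoxD genes. Sox9 rose 9.88-fold (log2 fold change 3.30, SE 0.24, adjusted p = 0.000181 by edgeR), and Sox10, the lineage factor of oligodendrocytes that SoxD proteins counteract, rose 5.38-fold (log2 fold change 2.43, SE 0.29, adjusted p = 0.00122). The counts do not tell transgenic from endogenous Sox9. Sox8, the remaining SoxE gene, averaged 246 ± 46.0 CPM in Sox9-tg and 247 ± 12.8 CPM in control libraries and did not pass the test (adjusted p = 0.995). Within a library, every SoxD gene was lower relative to Sox9 in all Sox9-tg libraries than in any control library. Sox9 is the overexpressed gene, so a gene that rose less than Sox9 comes out lower against it. The ratios to Sox9 and their p-values are therefore only a description. The log2 ratio to Sox9 differed by -2.49 for Sox5, -1.49 for Sox6 and -2.41 for Sox13 (exact permutation p = 0.0571 each, adjusted p = 0.0857 over 12 ratios to Sox9, Sox10, Olig2 and Pdgfra). Relative to Sox10, Sox5 (-1.59) and Sox13 (-1.52) were likewise lower without overlap, with the same p-values by the exact permutation test. Sox6 relative to Sox10 differed by -0.59 with overlapping groups (exact permutation p = 0.229).

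Relative to Olig2, Sox6 was higher in Sox9-tg libraries while the other members overlapped. Olig2, a transcription factor of the whole oligodendrocyte lineage, rose 1.97-fold (adjusted p = 0.00778 by edgeR, or 0.0605 without control library 3). The log2 ratio of Sox6 to Olig2 was -0.65 ± 0.52 in Sox9-tg and -1.50 ± 0.27 in control libraries, higher in 4 of 4 Sox9-tg libraries than in every control library (exact permutation p = 0.0571, adjusted p = 0.0857). For Sox5 the log2 ratio to Olig2 differed by -0.16 (exact permutation p = 0.686), and for Sox13 by -0.08 (exact permutation p = 0.80), with overlap in both. Pdgfra, the PDGF receptor of NG2 glia, rose 3.30-fold. Relative to Pdgfra, Sox6 differed by 0.09 with overlap (exact permutation p = 0.80), and the sign turned to -0.04 without Sox9-tg library 2. Sox5 (-0.91) and Sox13 (-0.84) were lower relative to Pdgfra without overlap (exact permutation p = 0.0571 each). How much of each SoxD change goes with a change in the share of lineage cells was not tested.

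**Figure D3:**
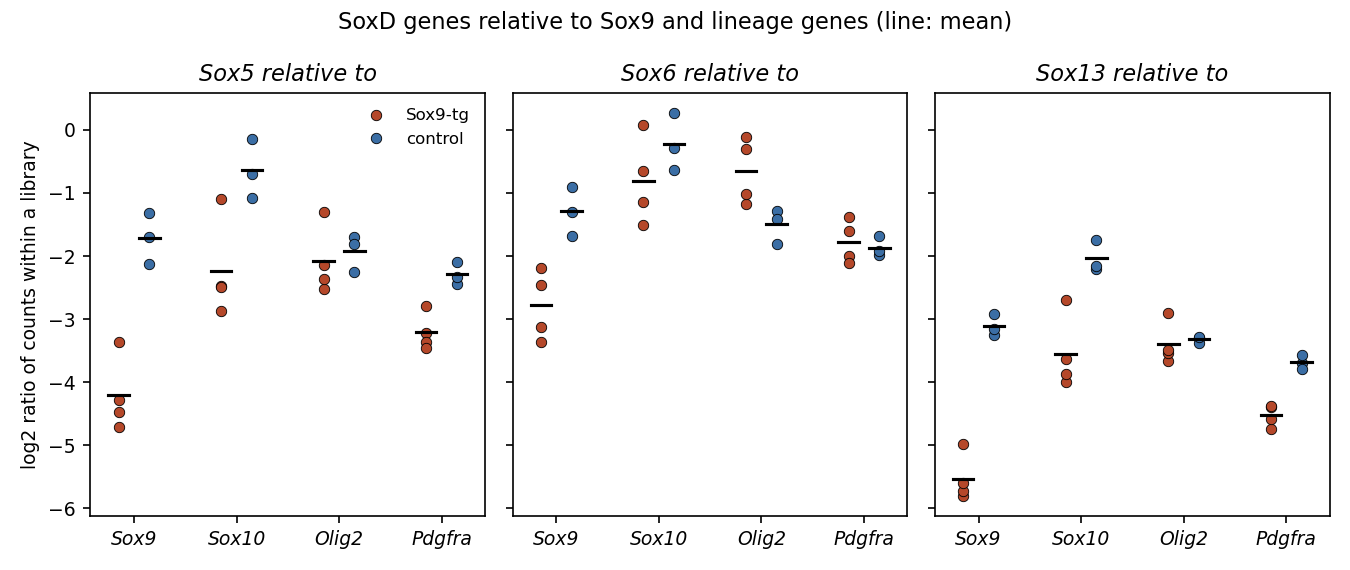
Log2 ratio of the counts of Sox5, Sox6 and Sox13 to those of Sox9, Sox10, Olig2 and Pdgfra within each library (1 point a library, line for the mean, Sox9-tg left of control). All SoxD genes lie lower against Sox9, the overexpressed gene, in Sox9-tg libraries. Sox6 is the only one without overlap against Olig2, higher, by 0.85 on the log2 scale.

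Genes that share the SoxD loci held few reads, most of them in Sox9-tg library 1. Within Sox5, 7 annotated genes (among them the antisense genes Sox5os1 to Sox5os5) summed to 0.887% of the Sox5 counts over all libraries, and none passed the filter on low counts. Sox9-tg library 1, in which Sox5 stood apart, held 130 of these 167 reads, 3.19% of its Sox5 counts, and without it the share was 0.251%. Sox6 overlapped Gm45025 and the antisense gene Sox6os, which together summed to 0.542% of its counts, and Sox13 overlapped none. Sox9-tg library 1 held 128 of the 224 reads, 1.39% of its Sox6 counts, and without it the share was 0.299%. That library also had the largest share of counts in genes removed by the filter, 0.364%, against 0.0798% to 0.182% in the others. Its part in the Sox5 level was not tested, and without it Sox5 still passed the test, as given above. Sox6os was scarce, at 1.20 CPM on average in Sox9-tg and 0.535 CPM in control libraries, and did not pass the test (adjusted p = 0.234, edgeR). Whether counting was strand-specific is not given in the sources used here, so reads of a gene and its antisense partner cannot be told apart, and Sox5os1 shares 1330 exonic bases with Sox5.

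Of the 6 nearest tested coding neighbours, 2 rose, 1 fell and 3 did not pass. The shares called over all tested genes were 7.69% higher and 5.86% lower by edgeR. The start of 1110004F10Rik lies 0.601 kb from the outer end of Sox6 on the other strand, and that gene stood at 157 CPM in Sox9-tg and 165 CPM in control libraries (log2 fold change -0.07, adjusted p = 0.837 by edgeR). On the other side of Sox6, 620 kb away, the scarce gene Insc stood at 1.601 CPM in Sox9-tg and 0.279 CPM in control libraries. This rise was at the edge of the threshold (adjusted p = 0.0472) and was lost without control library 1, 2 or 3 (0.122, 0.0926 and 0.116, edgeR). The Insc call was also lost with limma-voom (0.0828) and in edgeR with upper-quartile factors (0.0566) or library totals only (0.0539). Etnk2, 1.97 kb from Sox13, was scarce at 1.37 CPM in Sox9-tg and 1.19 CPM in control libraries and did not pass. Snrpe, a splicing factor gene 179 kb to the other side of Sox13, fell (32.6 CPM in Sox9-tg and 49.8 CPM in control libraries, adjusted p = 0.020). Its call was lost without Sox9-tg library 3 or 4 (0.0657 and 0.0636) or control library 1 or 3 (0.078 and 0.0681). Beside Sox5, the branched-chain aminotransferase gene Bcat1 (78.3 CPM in Sox9-tg and 70.2 CPM in control libraries, 212 kb away) did not pass. The ethanolamine kinase gene Etnk1, 596 kb away, rose slightly (140 CPM in Sox9-tg and 101 CPM in control libraries, adjusted p = 0.030). This call was lost without any of the libraries other than Sox9-tg 1 and 3 (highest adjusted p = 0.141, without control library 3). With upper-quartile factors in edgeR the Etnk1 call was lost as well (adjusted p = 0.0515).

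Cartilage genes that Sox9, Sox5 and Sox6 jointly activate in chondrocytes were higher in Sox9-tg libraries. Of 18 listed genes, 17 were found in the files and 14 were tested, and 14 rose, and the median of their log2 fold changes was 4.54, beside -0.01 over all tested genes. Members that passed the filter only through the Sox9-tg group had to be high there, so this count is a description. The same holds for the counts of the lists that follow. For each list the background is the share over all tested genes, 7.69% called higher and 5.86% lower by edgeR. Col2a1, the main collagen of cartilage, stood at 758 ± 290 CPM in Sox9-tg and 23.0 ± 3.48 CPM in control libraries, and Col9a1, a collagen that coats its fibrils, at 227 ± 112 CPM in Sox9-tg and 6.92 ± 1.57 CPM in control libraries. Matn4, a matrilin that NG2 glia also express, rose to 1036 ± 260 CPM in Sox9-tg, against 46.5 ± 12.9 CPM in control libraries. Of these genes, 13 passed with limma-voom, 14 with DESeq2 and 13 or 14 when single libraries were left out.

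SoxD proteins are known to hold down myelin genes in progenitors. Of 20 listed myelin genes 17 were tested, 12 rose and none fell (edgeR, median log2 change 3.10), with 0 lower at an unadjusted p under 0.05 and 0 lower by DESeq2 or limma-voom. Gal3st1, which makes the myelin lipid sulphatide, stood at 113 ± 42.5 CPM in Sox9-tg and 8.63 ± 2.95 CPM in control libraries. Gjb1, a gap junction gene of myelinating cells, stood at 22.2 ± 4.88 CPM in Sox9-tg and 3.77 ± 0.671 CPM in control libraries. Mbp, which encodes myelin basic protein, was uneven, at 257, 1883, 1110 and 1002 CPM in Sox9-tg libraries 1 to 4, against 33.6, 69.1 and 62.2 CPM in control libraries. The Sox9-tg library with the lowest Mbp (library 1) had the highest Sox5 and Sox13, and the one with the highest Mbp (library 2) had the highest Sox6 and the lowest Sox13. The 5 tested genes that did not pass were all under 5 CPM on average in both groups (Mog, Ermn, Mal, Aspa and Nkx6-2, named after their values were seen).

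Of 20 listed genes of NG2 glia, 19 were tested, 16 rose and none fell (median log2 change 1.68), and 10 rose without control library 3. At an unadjusted p under 0.05, 1 was lower by edgeR, and DESeq2 called 1 lower and limma-voom 0. Cspg4, which encodes NG2 itself, stood at 593 ± 93.2 CPM in Sox9-tg and 114 ± 17.9 CPM in control libraries. The log2 fold change of Sox6 (1.83) was close to the median of this list, and those of Sox5 and Sox13 were below it. Matn4 and Susd5 stand in both this list and the cartilage list.

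**Figure D4:**
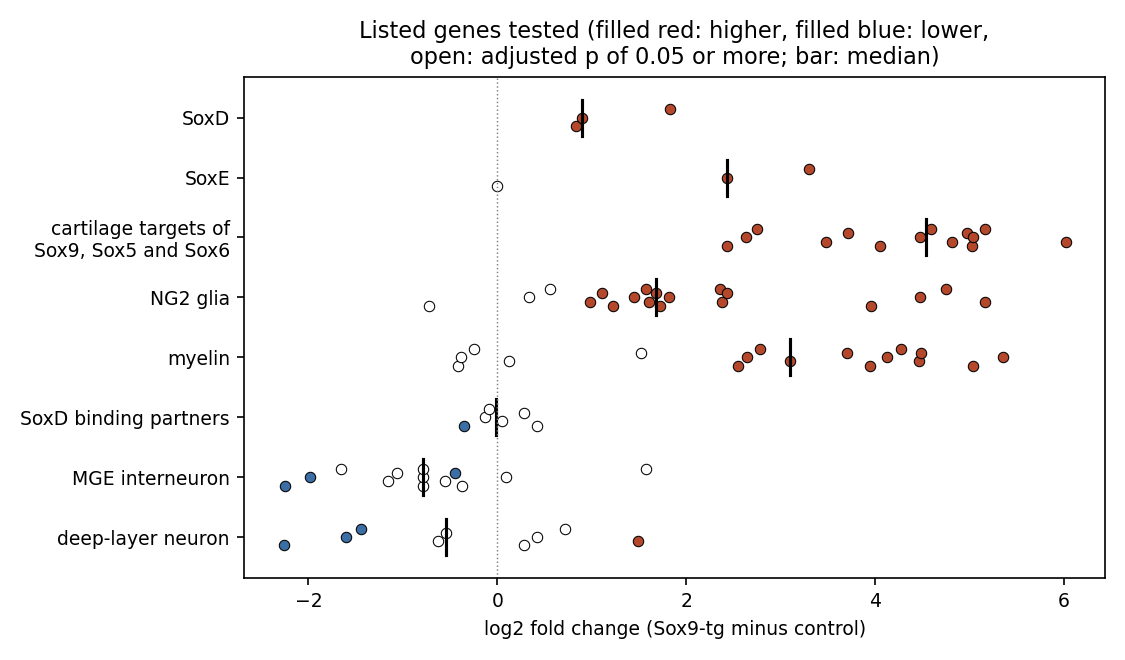
Log2 fold change (horizontal axis, Sox9-tg minus control) of the tested members of 8 gene lists, each point a gene and each bar the list's median. SoxD genes lie between 0.83 and 1.83, below most cartilage and myelin genes, and the interneuron and deep-layer neuron lists are centred below 0.

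Of 6 genes for proteins reported to bind SoxD factors, none rose and 1 fell by edgeR. At an unadjusted p under 0.05, 1 was higher, and DESeq2 and limma-voom called 0 higher. Ctbp2, a corepressor that binds Sox6, fell slightly (68.5 ± 3.34 CPM in Sox9-tg and 87.7 ± 1.68 CPM in control libraries, log2 fold change -0.36, adjusted p = 0.0349 by edgeR). That call was lost when any library other than Sox9-tg library 1 was left out (highest adjusted p = 0.172, without control library 3). Ctnnb1, which encodes beta-catenin, stood at 1148 ± 103 CPM in Sox9-tg and 946 ± 134 CPM in control libraries and did not pass. Ccnd1, a cyclin gene, stood at 121 ± 13.8 CPM in Sox9-tg and 90.6 ± 17.1 CPM in control libraries and did not pass either.

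Markers of neurons that express SoxD genes fell or did not pass, with 1 exception. Sox6 is a factor of interneurons from the medial ganglionic eminence, and of 14 listed markers of these cells 13 were tested, none rose and 3 fell, with a summed level of 786 to 2469 CPM in Sox9-tg and 2120 to 3542 CPM in control libraries. At an unadjusted p under 0.05, 1 was higher and 6 were lower by edgeR, and DESeq2 and limma-voom each called 1 higher. Without control library 3, 1 marker fell by edgeR. Maf fell to 10.8 ± 6.04 CPM in Sox9-tg, against 51.5 ± 15.6 CPM in control libraries. In both groups Maf was highest in library 2 (19.9 CPM in Sox9-tg, 69.5 CPM in control). That library was the lowest of its group in the interneuron sum (786 and 2120 CPM). It was the highest of its group in summed microglial and blood cell markers (235 and 582 CPM). Which cells the Maf reads came from was not tested. The Sox9-tg library highest in Sox6 (library 2, 501 CPM) was the lowest in the interneuron sum (786 CPM). Sox9-tg library 1, close to it in Sox6 (485 CPM), was the highest of its group in that sum (2469 CPM). Libraries 3 and 4, lower in Sox6 (351 and 357 CPM), lay between in that sum (1774 and 1722 CPM). Sox5 is a factor of deep-layer cortical neurons, and of 10 listed markers 9 were tested, 1 rose and 3 fell, with a summed level of 234 to 240 CPM in Sox9-tg and 245 to 329 CPM in control libraries. Tbr1 fell to 7.18 ± 1.16 CPM in Sox9-tg, against 34.6 ± 18.1 CPM in control libraries. The member that rose was Crym (31.9 ± 7.90 CPM in Sox9-tg and 11.3 ± 6.85 CPM in control libraries, adjusted p = 0.0285 by edgeR), a call lost without control library 1 or 3 (0.0851 and 0.118) or Sox9-tg library 3 or 4 (0.051 and 0.064).

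Sox13 is also expressed in blood vessel walls. Of 10 endothelial markers 8 were tested and none passed in either direction, and their summed level was 13.0 to 37.2 CPM in Sox9-tg libraries, against 11.4, 161 and 8.64 CPM in control libraries 1 to 3. Control library 2, the highest in this sum, was also the highest control library in Sox13 (37.1 CPM), and without it the log2 fold change of Sox13 was 0.98. The Sox9-tg group went the other way: its library 2, the highest in this sum (37.2 CPM), was the lowest in Sox13 (48.8 CPM). At an unadjusted p under 0.05, 2 were lower and 0 higher by edgeR, and DESeq2 and limma-voom called 0. Without control library 2, 1 was called higher by edgeR. Of 10 mural cell markers 8 were tested and only Cspg4, shared with NG2 glia, rose. Without Sox9-tg library 1 a total of 2 rose, and without Sox9-tg library 2 there was 1 that fell. Of 12 microglial and blood cell markers 10 were tested and none passed, with sums of 46.7 to 235 CPM in Sox9-tg and 114 to 582 CPM in control libraries. At an unadjusted p under 0.05, 4 of these were lower and 0 higher by edgeR, DESeq2 called 1 lower and limma-voom 0. By edgeR 2 were called lower without Sox9-tg library 2, and 1 without control library 3. Of 10 astrocyte markers 3 fell and 1 rose, with sums of 1664 to 2462 CPM in Sox9-tg and 2401 to 4346 CPM in control libraries. DESeq2 called 5 lower and limma-voom 3, and 6 were lower at an unadjusted p under 0.05 by edgeR. Without control library 1, 5 fell, and 2 fell without control library 2 or 3 or Sox9-tg library 2, 3 or 4. The one that rose was S100b, which oligodendrocytes also express. Aqp4, a water channel gene, fell to 29.7 ± 6.25 CPM in Sox9-tg, against 153 ± 62.4 CPM in control libraries. Of 12 Schwann cell and melanocyte markers 9 were tested, 5 rose and 1 fell, with sums of 133 to 250 CPM in Sox9-tg and 43.8 to 74.0 CPM in control libraries. Here too, members that passed the filter only through the Sox9-tg group had to be high there, so the count is a description. The call of the 1 that fell was lost when any single library was left out and without the filter. The part of these markers' cells in the SoxD changes was not tested.

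The genes whose levels followed each SoxD gene most closely differed between members. Likeness was measured as Pearson's r of log2(CPM + 1) over the 7 libraries, among 9746 genes with a mean of at least 10 CPM, and since the libraries share their group and depth it carries no test. For Sox6 the 5 closest were Lrch3 (r = 0.996), Gpr89, Ankrd28, Dnm3 and the AMPA receptor subunit gene Gria4 (r = 0.989). For Sox5 they were Atxn7l1 (r = 0.986), Sorcs3, Ints6, Slc30a7 and Lmtk2 (r = 0.982). All 5 stood highest in Sox9-tg library 1, the library in which Sox5 stood apart. Of these, Ints6 and Slc30a7 did not pass the test between groups (adjusted p = 0.139 and 0.0678, edgeR). For Sox13 they were Fam69c (r = 0.992), the transcription factor gene Ets1, the neuropeptide gene Npy, the Wnt coreceptor gene Lrp5 and Prrc1 (r = 0.981). The r between members was 0.920 for Sox5 and Sox6, 0.872 for Sox5 and Sox13 and 0.872 for Sox6 and Sox13. These lie below the 5 closest, which were picked as the highest among 9746 genes. By rank, Sox6 came 80th and Sox13 230th for Sox5, and Sox5 came 348th and Sox13 635th for Sox6. For Sox13, Sox6 came 396th and Sox5 398th. Closeness in r says nothing of size: Lrch3 rose by a log2 fold change of 1.79, near that of Sox6, whereas Npy rose by 4.14 and Sox13 by 0.90.

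**Figure D5:**
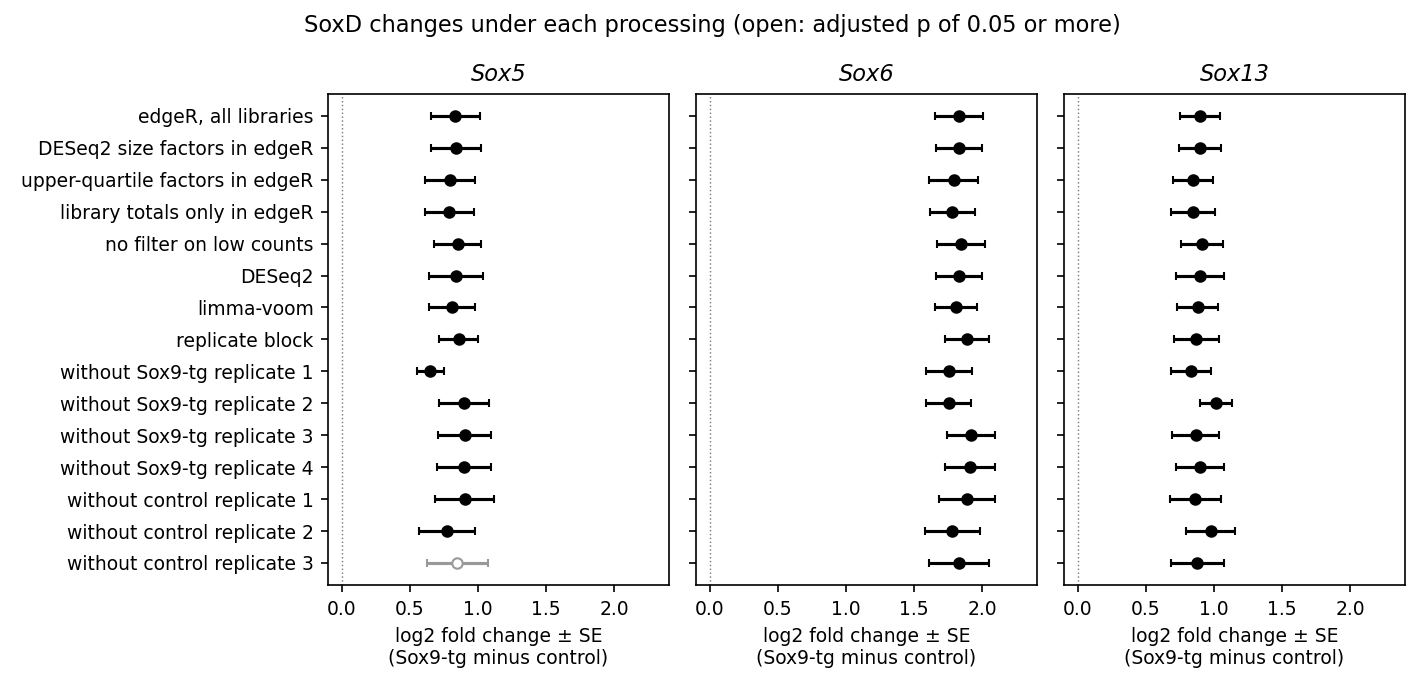
Log2 fold change ± SE of Sox5, Sox6 and Sox13 (horizontal axes, Sox9-tg minus control) in the edgeR test with all libraries and under each alternative (rows), with an open point where the adjusted p was 0.05 or more. Sox6 stays between 1.75 and 1.92 and Sox13 between 0.83 and 1.01, and the single open point is Sox5 without control library 3.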

How the data were processed

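The authors deposited whole-number read counts per gene, 1 table per library. The submitters' processing notes name the build GRCm38 and, among tools, Subread 1.5.2 with featureCounts, STAR 2.5.2b, Trimmomatic 0.36, DESeq and DESeq2. Settings and annotation are not given in the sources used.

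Titles gave groups and replicate numbers. Genes were filtered with filterByExpr (minimum count 10, minimum total 15), scaled by TMM and tested with edgeR 4.0.16 in R 4.3.3 (quasi-likelihood F test on group, Benjamini-Hochberg, threshold 0.05). Ratios used counts plus 0.5 and exact two-sided permutation tests (scipy 1.17.1). Lengths came from GENCODE M21 (GRCm38), which held 48970 of 49315 IDs. In simulated counts for this comparison (16616 genes), 38.8% of 2-fold and 83.3% of 4-fold changes were recovered, and 10.3% of calls were false. Only 67 genes were changed 1.5-fold, 67 were changed 2-fold and 66 were changed 4-fold there. In the data 2251 genes were called, so these rates may not hold for them. In single libraries 3 counts equal 0.097 to 0.193 CPM.

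No pair of libraries of a group agreed within sampling noise. Sox9-tg 3 and 4 were closest (chi-square of 5.29 per degree of freedom), the other pairs lay between 45.0 and 93.6, and all were counted separately. Members and lists were chosen with earlier results of these data known. The named genes are the SoxD and SoxE genes, their loci, Olig2, Pdgfra, Cspg4, Mbp, in each list up to 4 genes of lowest p, and the 5 genes most like each member (predicted and sex-linked genes left out). Values of some listed genes are not reported here. Alternatives were other scalings, no filter, DESeq2 1.42.0, limma 3.58.1 (voom), a replicate term, other lengths and single libraries left out.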

Additional observations from a re-analysis of the deposited data

Results flagged for a closer look

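Of 85 values screened for a Sox9-tg library far from the other 3, 7 stood apart. Chance sets apart about 1 in 20 independent values, but many of these genes vary together and some were picked for their likeness to a SoxD gene, so that rate does not apply here. The control group of 3 libraries was not screened. Sox5 was 214 CPM in Sox9-tg library 1, against 137 to 141 CPM in the others, and Sox6os 2.57 CPM, against 0.644 to 0.927 CPM. Sorcs3, whose levels followed those of Sox5, was 28.5 CPM in Sox9-tg library 1, against 21.8 to 21.9 CPM. In Sox9-tg library 2, Col2a1 was 1193 CPM (597 to 632 CPM in the others) and Maf 19.9 CPM (7.66 to 8.003 CPM). Maf is on the interneuron list, but among Sox9-tg libraries the sum of that list was lowest in library 2 (786 CPM). The sum of microglial and blood cell markers was highest in that same library (235 CPM). The endothelial markers Cldn5 (8.78 CPM, against 1.47 to 2.15 CPM) and Pecam1 (2.79 CPM, against 0.634 to 0.893 CPM) were also highest there.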

How the results depend on the processing

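Sox5, Sox6 and Sox13 kept their direction and their calls under the other scalings, without the filter, with DESeq2, with limma-voom and with single libraries left out, except that Sox5 was not called without control library 3 (log2 fold change 0.85). Without single libraries the log2 fold change ran from 0.65 to 0.90 for Sox5, 1.75 to 1.92 for Sox6 and 0.83 to 1.01 for Sox13, the number of changed genes from 965 to 3169 (575 to 1785 higher, 390 to 1384 lower; 2251 with all libraries), and calls among NG2 glia genes from 10 to 17 higher and 0 to 1 lower. The total was 965 without control library 3, 1261 without control library 1, 1342 without Sox9-tg library 3 and 1356 without Sox9-tg library 4. Upper-quartile factors gave 1113 genes higher and 1112 lower. With the replicate block, 1509 genes were lower (973 without it), 3109 changed in all, and the log2 fold changes were 0.86 for Sox5, 1.89 for Sox6 and 0.87 for Sox13. Same-numbered libraries share only a number: their deviations correlated at 0.317, 0.613 and 0.0703, and 4 of 6 libraries were most like the library of the same number. Among NG2 glia genes, 1 was lower with upper-quartile factors, DESeq2 or the replicate block. With the replicate block 10 interneuron markers fell (3 without it), 7 microglial and blood cell markers (0), 8 astrocyte markers (3), 3 endothelial markers (0) and 2 mural cell markers (0), and 2 deep-layer neuron markers rose (1). Without the filter 1 endothelial and 1 microglial or blood cell marker fell.

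Shares of the summed SoxD level moved with length. Per longest transcript, Sox5 held 24.8% in Sox9-tg and 34.9% in control libraries, Sox13 19.7% in Sox9-tg and 26.1% in control libraries, and Sox6 39.1% in control libraries. With no length, Sox6 held 65.6% in Sox9-tg and 49.3% in control libraries, Sox5 24.5% in Sox9-tg and 36.7% in control libraries, and Sox13 9.96% in Sox9-tg and 14.0% in control libraries. Log2 ratios near 0 turned sign without single libraries: Sox13 to Sox5 ran from -0.027 to 0.21, Sox6 to Pdgfra from -0.042 to 0.20 and Sox13 to Olig2 from -0.25 to 0.0079. So did log2 fold changes of genes not called: Sox8 ran from -0.095 to 0.091 (0.015 without the filter), 1110004F10Rik from -0.20 to 0.10, Cldn5 from -3.34 to 0.50 and Etnk2 from -0.14 to 0.91. The causes were not tested.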
